A study of Mus musculus with 6 samples.

Results

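The genes described here are the RUNX transcription factors, their shared partner and a set of genes of bone and cartilage, measured by poly(A) RNA sequencing in mouse embryo fibroblasts. The 10 genes are Runx1, Runx2, Runx3, Cbfb, Sp7, Alpl, Spp1, Ibsp, Acan and Hapln1. They were chosen by name, through the symbols of their Ensembl identifiers, and all 10 were found among the 49315 genes of the files. The study asked which transcripts change when MDMX, an inhibitor of p53, can no longer bind the kinase CK1-alpha. Cells labelled SG carried MDMX with the substitutions W201S and W202G on both alleles, and cells labelled WT carried wild-type MDMX. All lines of both genotypes lacked p53, were of strain C57BL/6, were untreated and were harvested at passage 4. There were 3 SG lines (SG1, SG2, SG3) and 3 WT lines (WT3, WT9, WT11), each grown from a separate embryo, so n is 3 embryos per genotype. A fibroblast culture from an embryo can mix mesenchymal cells of many sites, and in such bulk RNA fewer cells of a type and less RNA per cell cannot be told apart.

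RUNX1, RUNX2 and RUNX3 bind DNA through the Runt domain, and CBFB is the partner protein that does not touch DNA itself but strengthens the binding of all RUNX proteins. RUNX2 is required for osteoblasts to form, and SP7 (osterix) acts after it in the same lineage. Alkaline phosphatase (Alpl), bone sialoprotein (Ibsp) and osteopontin (Spp1) are products of bone-forming cells, and osteopontin is also made by macrophages and by many cultured fibroblasts. Aggrecan (Acan) is held on hyaluronan by its link protein (Hapln1) in the matrix of cartilage.

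RUNX proteins recognise a short motif, and the bases before each gene's start were searched for it so that the measured levels can be read beside the sequence. RefSeq (GRCm38.p6) gave 13 start sites for 9 of the 10 genes. The 250 bases before each start were searched on both strands for TGTGGT and TGCGGT, which do not overlap with each other. TGTGGT was present before 4 of the 13 starts, 1 start each of 4 genes (Runx2, Runx3, Spp1 and Hapln1), and TGCGGT before 0. Of all 32817 promoters of that length, 14% held TGTGGT and 5.1% held TGCGGT. The following stretches of 30 bases hold the matches, shown because they are the only matches among these genes. They are written 5′ to 3′ on the gene's own strand with the motif, or its reverse complement, in capitals.
Runx2 (chr17:44814690-44814719, minus strand): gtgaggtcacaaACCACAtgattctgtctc
Runx3 (chr4:135120503-135120532, plus strand): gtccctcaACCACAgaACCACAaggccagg
Spp1 (chr5:104434971-104435000, plus strand): tttttttttttaACCACAaaaccagaggag
Hapln1 (chr13:89540464-89540493, plus strand): tgggtgggggctTGTGGTtgggcctgctgc
The Runx3 start that lies farther upstream holds 2 matches, at bases -134 and -126 counted from its RefSeq start, and 1.3% of all promoters hold 2 or more. Runx2 has its match at base -80, Spp1 at base -128 and Hapln1 at base -160. The files bound Runx2 170 bases farther upstream than RefSeq, so its match lies inside the gene as the files give it. A match describes letters in the window and is not a measured binding site. Of these 4 genes, Spp1 was among the highest transcripts of the cells, Runx2 and Runx3 were at intermediate levels and Hapln1 was the lowest of the 7 that could be tested, as the values below show.

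The 10 genes covered a wide range of levels in both genotypes. On the scale of RPKM (reads scaled by library size and by exonic length in kilobases), which allows genes to be compared with each other, Spp1 stood at 833 ± 65.6 in SG and 911 ± 84.5 in WT lines (SD, n = 3), rank 29 of the 16068 genes with enough reads to be tested. Cbfb stood at 40.04 ± 0.844 and 43.3 ± 0.175 RPKM, rank 1259. The RUNX genes lay between ranks 7263 (Runx2) and 9041 (Runx3), Acan at rank 10449 and Hapln1 at rank 14721. The RPKM of Sp7, Alpl and Ibsp were below 0.1 in all 6 lines, and these 3 genes had too few reads to be tested.

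**Figure D1:**
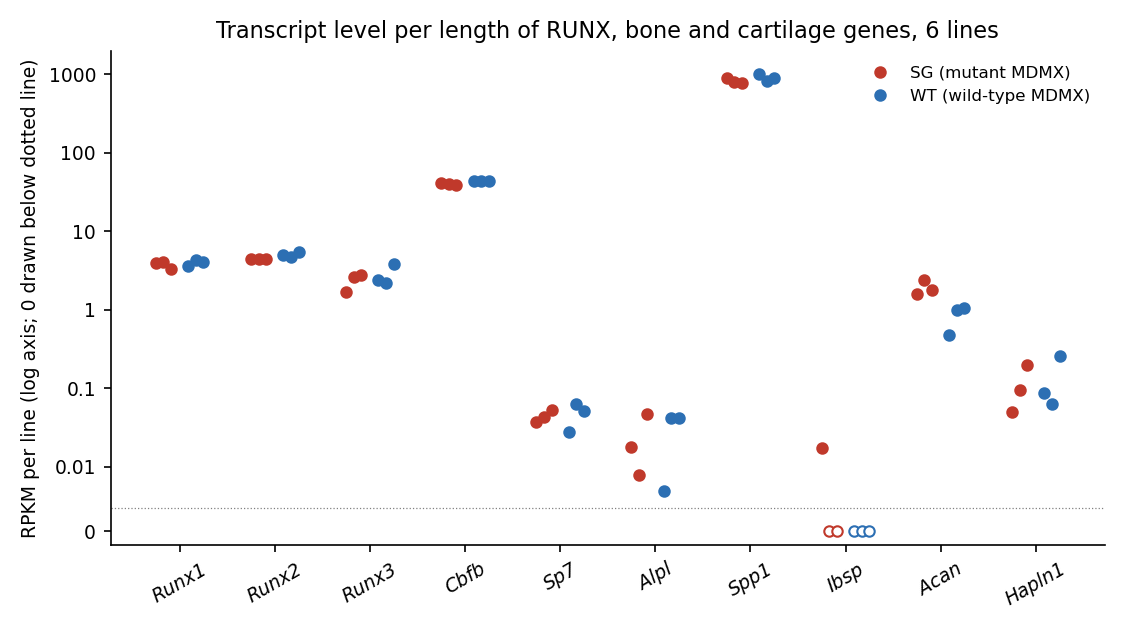
Level per length (RPKM, log axis) of each of the 10 genes in each of the 3 SG lines (red) and 3 WT lines (blue), with values of 0 drawn as open circles below the dotted line. Spp1 lies near 1000 RPKM in all 6 lines, while its chromosomal neighbour Ibsp is at 0 in 5 of 6.

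Between SG and WT, 0 of the 7 tested members passed the threshold (an adjusted p of 0.05 in edgeR's quasi-likelihood test with Benjamini-Hochberg adjustment over all genes), where 1.9% of all tested genes passed. At an unadjusted p under 0.05 there were 3 members (Runx2, Cbfb and Acan), against 15.5% of all genes, and DESeq2 called 1 (Acan), where it called 5.73% of the genes to which it gave an adjusted p. The median log2 fold change (SG over WT) of the 7 was -0.13 and that of all tested genes was 0.00, with 6 members below 0 and Acan above. Levels of SG and WT lines did not overlap for 3 of the 7, Acan higher in SG and Runx2 and Cbfb lower, where 10% of all genes lay apart upward and 11.2% downward. In simulated data with this design, 71.6% of genes changed 1.5-fold and 83.6% of genes changed 2-fold were called. The changed genes were drawn from those with an average log2 CPM above 0. Hapln1, at -0.59, lies outside that range, so these shares do not cover it. The shares are averages over genes of differing spread between lines and do not hold for each gene singly. The log2 fold changes of Runx3 and Acan had an SE of 0.25 and 0.28, against 0.03 to 0.10 for Runx1, Runx2, Cbfb and Spp1. Smaller changes were not simulated.

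Among the RUNX genes, Runx2 (ENSMUSG00000039153, GRCm38 chromosome 17, 44495987 to 44814797) was steadiest within SG. In CPM (counts scaled by library size) it stood at 38.8, 39.6 and 39.01 in SG1, SG2 and SG3, and at 43.6, 41.5 and 48.2 in WT3, WT9 and WT11. Every SG line lay below every WT line, with WT11 the highest. The log2 fold change of SG over WT, called log2 ratio here, was -0.18 (SE 0.06, 95% interval -0.31 to -0.05), 1.14-fold lower in SG, and did not pass over all genes (adjusted p = 0.164). Leaving out 1 line at a time moved it between -0.23 and -0.12 with an adjusted p of 0.0914 to 0.375. An antisense gene, Runx2os1, shares 519 of the 8837 exonic bases of Runx2 and stood at 0.789 ± 0.133 CPM in SG lines and 0.732 ± 0.17 CPM in WT lines. The strand setting of the counting is not given in the sources used here. Reads from the shared bases could have been counted to either gene or to neither.

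Runx1 (ENSMUSG00000022952, chromosome 16, 92601466 to 92826149), which is needed for blood stem cells to arise and is also present in mesenchyme, did not separate the genotypes. It stood at 46.9, 48.4 and 39.2 CPM in SG1, SG2 and SG3 and at 42.3, 51.6 and 48.5 CPM in WT3, WT9 and WT11. The lowest line was SG3 and the highest WT9, and the ranges overlapped (log2 ratio -0.08, SE 0.10, 95% interval -0.31 to 0.14, adjusted p = 0.744). Without SG3 the log2 ratio was 0.0052.

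Runx3 (ENSMUSG00000070691, chromosome 4, 135120652 to 135177990), known for its roles in sensory neurons, T cells and maturing cartilage, varied most between lines of the 3. It stood at 8.53, 13.2 and 13.7 CPM in SG1, SG2 and SG3 and at 12.1, 11.1 and 19.3 CPM in WT3, WT9 and WT11. SG1 was lowest and WT11 highest, with the other 4 lines between 11.1 and 13.7 CPM (log2 ratio -0.26, SE 0.25, adjusted p = 0.675). Without WT11 the log2 ratio was 0.03.

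Macrophages and other blood cells also express Runx1, Runx3 and Spp1, so the summed level of 14 macrophage and blood markers is given for the same lines. It was 36.3, 40.2 and 88.4 CPM in SG1, SG2 and SG3, while WT3, WT9 and WT11 had sums of 47.4, 45.7 and 15.5 CPM, and each of the 14 markers had reads in at least 1 line. The line with the highest Runx3, WT11, had the lowest sum of these markers, and SG3, with the highest sum, had the lowest Runx1 and the lowest Spp1. Among the SG lines, Runx3 (8.53, 13.2 and 13.7 CPM in SG1, SG2 and SG3) rose in the same order as the sum. Of the 13 that could be tested, 13 lay above 0 (median log2 ratio 0.56) and 0 passed in edgeR or DESeq2, nor did any reach an unadjusted p under 0.05. Lyz2, the macrophage lysozyme gene, was at 17.7 ± 9.27 CPM in SG lines and 10.7 ± 5.95 CPM in WT lines, and C1qb, of complement, at 3.86 ± 3.13 and 2.76 ± 1.57 CPM. The receptor gene Cd14 had a log2 ratio of 0.62 (adjusted p = 0.339) and Cd68, of macrophage lysosomes, one of 0.56 (adjusted p = 0.388). The part of blood cells in the levels of Runx1, Runx3 and Spp1 was not tested.

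Per unit of length, Runx2 gave the largest share of RUNX transcripts in every line. It made up 41.9 ± 1.83% of the summed RPKM of Runx1, Runx2 and Runx3 in SG and 42.5 ± 2.37% in WT lines (SD, n = 3). Runx1 made up 35.9 ± 3.93% in SG and 34 ± 4.21% in WT, and Runx3 22.2 ± 4.75% and 23.5 ± 4.73%. These differences between genotypes were smaller than the spread between lines. The order of Runx1 and Runx2 depends on their annotated exonic lengths, 11827 bases for Runx1 and 8837 for Runx2. In CPM, which does not divide by length, Runx1 lay above Runx2 in every line but WT3. Each RUNX gene has more than 1 transcript form, and a count per gene does not say which start site was used.

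**Figure D2:**
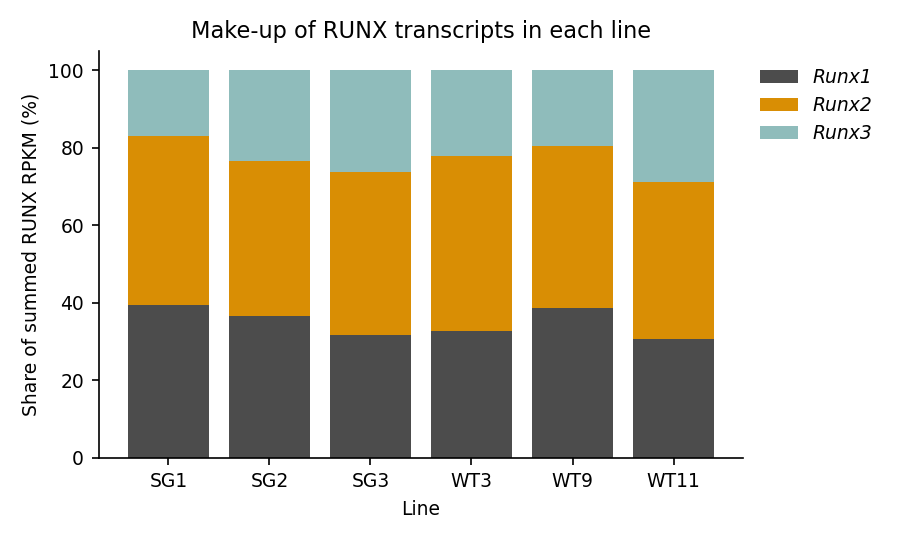
Share of the summed RPKM of Runx1, Runx2 and Runx3 (percent, stacked bars) that each gene took in each of the 6 lines. Runx2 is the largest part in all 6, between 39.97% (SG2) and 45.2% (WT3), and Runx3 the smallest.

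Cbfb (ENSMUSG00000031885, chromosome 8, 105170674 to 105217989) was far above the RUNX genes per length and differed little between lines. It stood at 142, 139.7 and 136 CPM in SG1, SG2 and SG3 and at 151, 150.2 and 151 CPM in WT3, WT9 and WT11. All SG lines were lower, by a small amount (log2 ratio -0.11, SE 0.03, 95% interval -0.19 to -0.04, adjusted p = 0.146). The ratio of Cbfb to summed RUNX RPKM was 3.79 ± 0.245 in SG and 3.68 ± 0.398 in WT (SD, n = 3), a difference within the spread between lines. Runx2 and Cbfb thus both lay lower in the 3 SG lines, by 1.14-fold and 1.08-fold, and neither passed the threshold.

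For Runx1 and Runx2, the genes whose log2 CPM followed them most closely over the 6 lines were named as a description. With Runx1 these included Rpusd4 and Mical2 (Pearson r = 0.99 and 0.98), and with Runx2 they were Ddx10, Hmmr and Eftud2 (r = 0.995, 0.993 and 0.991). They were drawn from 11493 genes, of which 95 reached an r of 0.9 or more with Runx1 and 422 with Runx2. All 6 points of each correlation come from the same libraries, which also differ in genotype and depth.

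The osteoblast genes set Spp1 apart from the rest. Spp1 (ENSMUSG00000029304, chromosome 5, 104435118 to 104441050), a secreted phosphoprotein that binds integrins and CD44, stood at 1496, 1328 and 1294 CPM in SG1, SG2 and SG3 and at 1652, 1376 and 1479 CPM in WT3, WT9 and WT11. The genotypes overlapped, with WT3 highest and SG3 lowest (log2 ratio -0.13, SE 0.08, 95% interval -0.31 to 0.05, adjusted p = 0.496). Gm42793, which shares 309 bases with Spp1, had 1.97 ± 0.426 CPM in SG lines and 1.8 ± 0.313 CPM in WT lines. The 250 bases before the RefSeq start of Spp1 (chr5:104434861-104435110, plus strand, GRCm38.p6), the most abundant transcript among the 10 genes, are shown with the RUNX motif in capitals.
Spp1: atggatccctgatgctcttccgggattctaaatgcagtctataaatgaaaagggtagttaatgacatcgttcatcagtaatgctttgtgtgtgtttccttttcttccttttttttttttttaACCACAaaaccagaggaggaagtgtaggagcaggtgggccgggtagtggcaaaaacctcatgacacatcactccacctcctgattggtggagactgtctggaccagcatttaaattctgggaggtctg
The same stretch holds TATAAA at base -211 and, on the other strand, CCAAT at base -46, and letters of these kinds are found before 12.4% and 33.8% of all starts.

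Ibsp (ENSMUSG00000029306, chromosome 5, 104299171 to 104311469) lies on the same strand, with 124 kb between its end and the start of Spp1, and was almost without reads. It had 2 reads in SG1 and 0 in each of the other 5 lines, and 0 reads in 3 libraries allow up to 0.0171 CPM in WT (3 counts over the group, counting error only). Dspp, Dmp1 and Mepe, the other genes of this cluster of bone and tooth phosphoproteins, had 0, 15 and 1 reads over all 6 lines. Spp1 was therefore the sole member of the cluster of 5 that was abundant in these cells.

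Sp7 (ENSMUSG00000060284, chromosome 15, 102356609 to 102366325) had 6, 8 and 9 reads in SG1, SG2 and SG3 and 4, 12 and 9 reads in WT3, WT9 and WT11. Alpl (ENSMUSG00000028766, chromosome 4, 137741733 to 137796384) had 4, 2 and 11 reads in the SG lines and 1, 11 and 10 in the WT lines. The genotypes overlapped for both genes, which had 48 and 39 reads in all. Without a filter on low counts, edgeR gave log2 fold changes (SG over WT) of -0.12 (SE 0.49, adjusted p = 0.954) for Sp7 and -0.34 (SE 0.69, adjusted p = 0.892) for Alpl. These errors are larger than the fold changes, so the data do not fix a direction for either gene. Bglap and Bglap2, near-identical genes for osteocalcin between which reads can be split, were also at most at 0.145 CPM in any line. Of 10 osteoblast markers, 4 (Runx2, Spp1, Col1a1 and Col1a2) had a mean of at least 1 CPM, and these 4 are transcribed in fibroblasts too.

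Acan (ENSMUSG00000030607, chromosome 7, 79053483 to 79115099) showed the largest difference among the 10 genes. It stood at 11.8, 17.96 and 13.3 CPM in SG1, SG2 and SG3 and at 3.6, 7.49 and 7.81 CPM in WT3, WT9 and WT11. Every SG line lay above every WT line, with SG2 highest and WT3 lowest. The fit gave 2.27-fold more in SG (log2 ratio 1.18, SE 0.28, 95% interval 0.53 to 1.84), which did not pass over all genes (adjusted p = 0.0855). It passed with DESeq2 (adjusted p = 0.0379) and without a filter on low counts (adjusted p = 0.00199, where 3.33% of genes passed) and missed in the other 12 of 14 alternatives, with adjusted p up to 0.285 when SG2 was left out.

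The level of Acan was low even in SG lines, at 1.92 ± 0.429 RPKM against 0.844 ± 0.314 RPKM in WT. Versican (Vcan), the aggrecan relative of loose connective tissue, stood at 14.9 RPKM in SG and 15.9 RPKM in WT. Acan thus came to 13.3 ± 4.01% of the Vcan level in SG and 5.31 ± 1.99% in WT (SD, n = 3), with a lowest SG value of 8.91% and a highest WT value of 6.67%. Gm26633, a gene of chromosome 7 picked as a neighbour of Acan, shares no exonic bases with it. Gm26633 had 9, 21 and 13 reads in SG1, SG2 and SG3 and 3, 8 and 9 reads in WT3, WT9 and WT11, too few to be tested. The 250 bases before the RefSeq start of Acan (chr7:79052976-79053225, plus strand, GRCm38.p6), the gene with the largest difference, hold neither RUNX motif. Acan as counted starts 257 bases farther downstream than in RefSeq, and the bases between these starts were not searched.
Acan: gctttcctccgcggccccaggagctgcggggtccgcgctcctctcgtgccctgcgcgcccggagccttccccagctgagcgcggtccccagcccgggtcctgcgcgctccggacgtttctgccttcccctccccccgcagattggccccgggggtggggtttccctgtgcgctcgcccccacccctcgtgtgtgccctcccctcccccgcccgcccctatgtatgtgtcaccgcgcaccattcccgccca
This stretch has 26 CG pairs and GGGCGG on its other strand at bases -44, -40 and -7, while the stretch before Spp1 has 3 CG pairs and no GGGCGG.

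**Figure D3:**
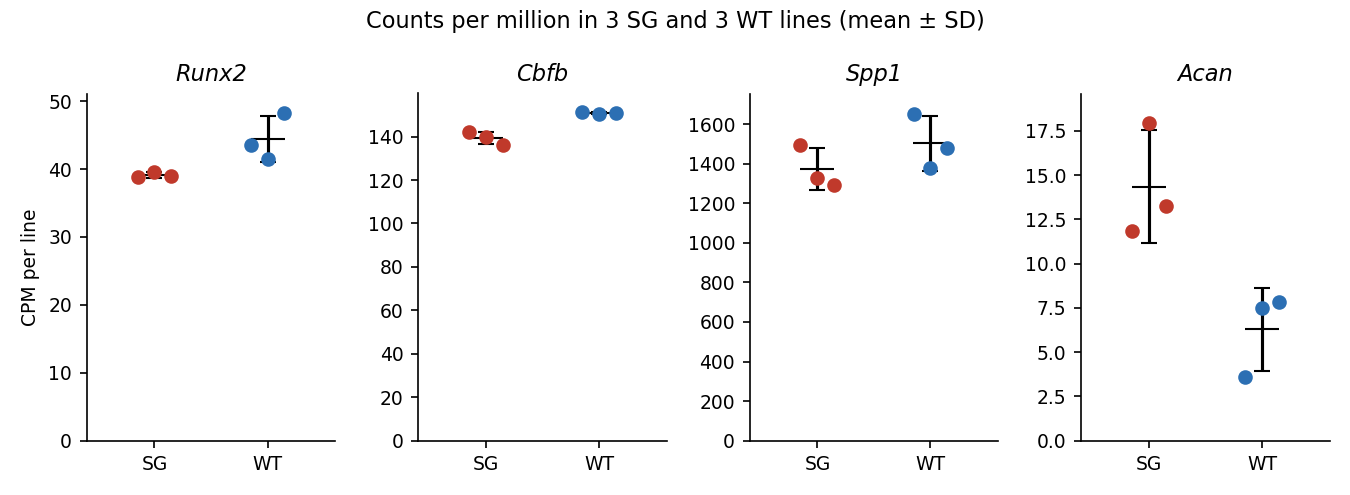
CPM of Runx2, Cbfb, Spp1 and Acan in each line, with SG lines in red, WT lines in blue, and black bars for the mean ± SD of 3 lines, all axes starting at 0. The genotypes lie apart for Runx2, Cbfb and Acan and overlap for Spp1, and the separation is widest for Acan (11.8 to 17.96 against 3.6 to 7.81 CPM).

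Hapln1 (ENSMUSG00000021613, chromosome 13, 89540636 to 89611832), which locks aggrecan onto hyaluronan, overlapped between the genotypes. It stood at 0.254, 0.486 and 0.993 CPM in SG1, SG2 and SG3 and at 0.44, 0.321 and 1.28 CPM in WT3, WT9 and WT11, on 14 to 77 reads per line. WT11 and SG3 were the highest and SG1 the lowest (log2 ratio -0.24, SE 0.62, 95% interval -1.68 to 1.20, adjusted p = 0.895). Without WT11 the log2 ratio was 0.62 and without SG1 it was 0.11, so these data do not fix its direction.

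**Figure D4:**
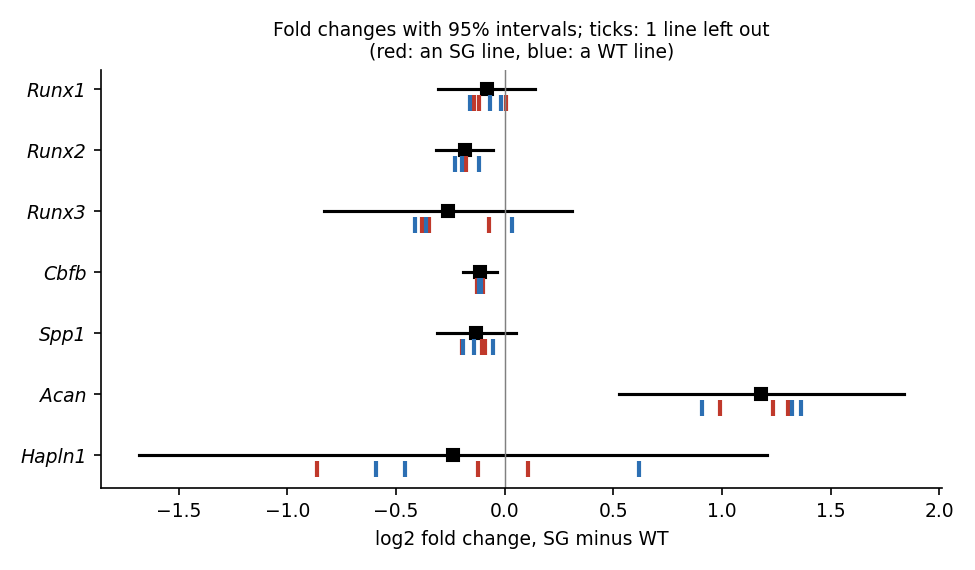
Log2 ratios (SG minus WT) of the 7 tested members, with squares for the fit to all lines, bars for its 95% intervals, and ticks for fits with 1 line left out (red where an SG line was left out, blue for a WT line). Acan stays between 0.91 and 1.36 in these fits, while Runx1, Runx3 and Hapln1 have ticks on both sides of 0.

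Around these genes, 6 lists of RUNX partners, bone genes and cartilage genes were counted. Of 100 tested genes on them, 3 were higher in SG (Runx1t1, Sparc and Col11a1) and 1 lower (Twist2) in edgeR, against 0.809% and 1.1% of all tested genes. DESeq2 called 19, where it called 5.73% of all genes to which it gave an adjusted p. At an unadjusted p under 0.05 in edgeR there were 32, against 15.5% of all tested genes. These shares over all genes also stand beside the counts of each list below. The lists were chosen with earlier results of these data known, so a higher share on them cannot be read as a trait of such genes. The median log2 ratio of the 100 was 0.04. The count of edgeR calls depends on single lines, and it was 0 without SG2, WT3 or WT11 and 15 without SG1.

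Of the 23 tested RUNX partners and regulators, 1 rose and 1 fell in edgeR (median log2 ratio 0.00, 7 at an unadjusted p under 0.05), while DESeq2 called 4, adding Smurf2 as higher and Twist1 as lower. Runx1t1, which encodes the corepressor ETO that is fused to RUNX1 in a human leukaemia, was at 30.6, 35.9 and 39.1 CPM in SG1, SG2 and SG3 and at 25.4, 25.9 and 25.6 CPM in WT3, WT9 and WT11. It was 1.38-fold higher in SG (log2 ratio 0.46, SE 0.08, adjusted p = 0.0397), a call that was lost without any 1 of SG2, SG3, WT3, WT9 and WT11. Twist2, a basic helix-loop-helix factor whose protein binds and restrains RUNX2, was at 34.3 ± 1.96 CPM in SG lines and 45.8 ± 2.38 CPM in WT lines, 1.33-fold lower (adjusted p = 0.0183, and up to 0.107 when SG2, WT3 or WT11 was left out). Its relative Twist1 had a log2 ratio of -0.33 and missed the threshold in edgeR (adjusted p = 0.066) but not in DESeq2 (adjusted p = 0.000992). Smurf2, a ubiquitin ligase gene, had a log2 ratio of 0.35 (adjusted p = 0.0904 in edgeR and 0.00187 in DESeq2). The members of highest RPKM were Aes (now called Tle5), a short Groucho-family protein, and the methyltransferase gene Prmt1, with log2 ratios of 0.02 (adjusted p = 0.82) and 0.00 (adjusted p = 0.998).

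Of 25 osteoblast factors and products, 18 could be tested, and in edgeR 1 rose and 0 fell (median -0.21, 13 below 0, and 7 at an unadjusted p under 0.05). DESeq2 called 4 of them, Sparc higher and Postn, Bmp4 and Msx2 lower in SG. Sparc (osteonectin), a collagen-binding protein of bone and of fibroblast matrix, was at 2096 ± 185 CPM in SG lines and 1598 ± 44.4 CPM in WT lines (adjusted p = 0.0295, and up to 0.129 when SG2, WT3 or WT11 was left out). Postn (periostin), a matrix protein of the periosteum, stood at 830, 569 and 591 CPM in SG1, SG2 and SG3 and at 1199, 932 and 1058 CPM in WT3, WT9 and WT11. Every SG line lay below every WT line. The fit gave 1.6-fold less in SG (log2 ratio -0.68, SE 0.15), which missed the threshold in edgeR (adjusted p = 0.0704) and passed it with DESeq2 (0.0236), without a count filter (0.00079), without SG1 (0.006) and without SG1 and WT9 (0.00146). Over all 14 alternatives its adjusted p reached 0.243, when SG2 was left out. Bmp4, a signal that induces bone, and Msx2, a homeobox factor of skull bone, had log2 ratios of -0.54 and -0.67 (adjusted p = 0.0787 and 0.178 in edgeR). Col1a1, the main collagen of bone and skin, stood at 929 RPKM in SG and 856 RPKM in WT (log2 ratio 0.12, SE 0.08, adjusted p = 0.566).

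Of 15 genes of mineralization, 12 were tested and 0 passed in edgeR (4 at an unadjusted p under 0.05, median 0.22, 10 above 0), while DESeq2 called 2, Ank and Smpd3, both higher in SG. Ank, a transporter that exports the mineral inhibitor pyrophosphate or its precursor, was at 80.4, 99.4 and 131 CPM in SG1, SG2 and SG3 and at 54.3, 70.1 and 65.4 CPM in WT3, WT9 and WT11. The lines did not overlap, and the log2 ratio was 0.71 (SE 0.17, adjusted p = 0.088). Smpd3, a sphingomyelinase needed for bone mineral, gave a log2 ratio of 1.12 (SE 0.34, adjusted p = 0.163) at 4.07 ± 0.899 and 1.86 ± 0.989 CPM. The abundant annexin genes Anxa5 and Anxa6 had log2 ratios of 0.03 and 0.10 (adjusted p = 0.808 and 0.485).

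Of 25 cartilage factors and matrix genes, 16 were tested, and in edgeR 1 rose and 0 fell (median 0.18, 13 above 0, and 4 at an unadjusted p under 0.05). DESeq2 called 3 of them, Col11a1 and Sox5 higher and Col27a1 lower in SG. Col11a1, a collagen that nucleates thin fibrils, was at 277, 294 and 367 CPM in SG1, SG2 and SG3 and at 168, 202 and 158 CPM in WT3, WT9 and WT11 (1.78-fold, adjusted p = 0.0241). Its call was lost without SG2, WT3 or WT11 (adjusted p up to 0.113) and with a robust prior (0.0611). Col2a1, the main cartilage collagen, is named after its values were seen, because its log2 ratio was the largest of this list. It stood at 20.8, 48.03 and 126 CPM in SG1, SG2 and SG3 and at 4.14, 24.7 and 19.2 CPM in WT3, WT9 and WT11, so SG1 lay below WT9 (log2 ratio 2.01, SE 0.74, adjusted p = 0.242, and 0.0331 without a count filter). Sox5, which works with SOX9 in cartilage, had a log2 ratio of 1.36 (SE 0.36). It missed the threshold in edgeR (adjusted p = 0.112) and passed it with DESeq2 (0.00296) and without a count filter (0.00867). Col27a1, a fibrillar collagen of cartilage, stood at 10.8, 5.86 and 5.97 CPM in SG1, SG2 and SG3 and at 12.2, 13.3 and 12.8 CPM in WT3, WT9 and WT11. Its lines did not overlap (log2 ratio -0.77, SE 0.22, adjusted p = 0.144 in edgeR and 0.00332 in DESeq2), so the fitted differences of Col11a1 and Col27a1 had opposite signs. Matn2, the gene of highest RPKM on this list with 21.95 RPKM in SG and 20.9 in WT, had a log2 ratio of 0.07 (adjusted p = 0.695).

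The markers of chondrocytes differed unevenly between lines. Their summed level over 8 markers was 56.3, 93.03 and 165 CPM in SG1, SG2 and SG3 and, for WT3, WT9 and WT11, 31.4, 55.6 and 48.97 CPM, with Col2a1 the source of most of the SG3 value. Acan and Hapln1 are among the 8, and without them the sums were 44.2, 74.6 and 151 CPM in the SG lines and 27.4, 47.8 and 39.9 CPM in the WT lines. These ranges overlapped, since SG1 lay below WT9. Matn1 had 0 reads in all lines, and Hapln1, Col9a1 and Comp had a mean under 1 CPM. The order of the SG lines differed between genes, since Acan was highest in SG2 and Col2a1 in SG3. How far a few chondrocytes in some cultures contribute to the level of Acan was not tested.

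Of 18 tested genes that make, bind or cut the hyaluronan matrix, 0 passed in edgeR (5 at an unadjusted p under 0.05, median 0.14), while DESeq2 called Adamts5 higher and Adamts4 and Adamts9 lower. Adamts5, a protease that cuts aggrecan, stood at 176 ± 5.36 CPM in SG lines and 129 ± 17.7 CPM in WT lines (log2 ratio 0.45, SE 0.09, adjusted p = 0.053), and Adamts4, which cuts aggrecan as well, at 10.4 ± 3.13 and 16.9 ± 1.41 CPM (log2 ratio -0.71, adjusted p = 0.115). The fitted differences of these aggrecanase genes thus had opposite signs. Cd44, the hyaluronan receptor that also binds osteopontin, and Adamts1 were the members of highest RPKM, with log2 ratios of 0.15 and -0.14 (adjusted p = 0.42 and 0.294).

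Of 13 tested receptors and proteases of osteopontin and its relatives, 0 passed in edgeR (5 at an unadjusted p under 0.05, median -0.04), while DESeq2 called Itgav and Plau higher and Mmp3 lower. Itgav, the integrin alpha chain that osteopontin binds, was at 566 ± 17.8 CPM in SG lines and 508 ± 10.9 CPM in WT lines (log2 ratio 0.16, SE 0.04, adjusted p = 0.0818). Mmp3, a protease that cleaves osteopontin, was at 2.01 ± 0.69 and 5.43 ± 1.65 CPM (log2 ratio -1.43, SE 0.28, adjusted p = 0.0526). Thbs1 and Itgb1, the members of highest RPKM, had log2 ratios of -0.04 and 0.11.

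**Figure D5:**
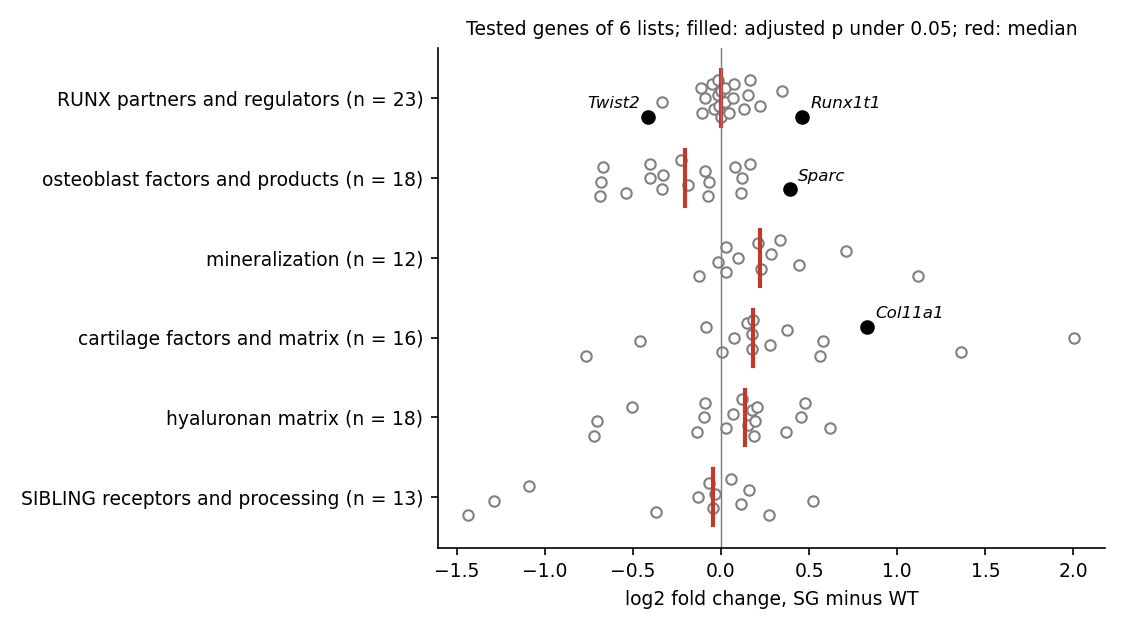
Log2 ratios (SG minus WT) of the tested genes of 6 lists, 1 circle a gene, filled where the adjusted p was under 0.05, with the median of each list in red. Filled circles are Twist2 on the lower side and Runx1t1, Sparc and Col11a1 on the higher side, and the medians run from -0.21 to 0.22.

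The labelled cell type was checked against its markers. Total counts were 49317925 to 65457242 per line, and all 10 fibroblast markers had a mean of at least 1 CPM, with summed levels of 6669 to 7309 CPM in SG and 7813 to 8215 CPM in WT, so that every SG line lay below every WT line. Vim gave the largest part of these sums, with a mean of 4327 CPM in SG lines and 4860 CPM in WT lines. In this list all 10 had log2 ratios below 0 (median -0.20). Levels of the genotypes did not overlap for 6, lower in SG, against 11.2% of all tested genes. At an unadjusted p under 0.05 in edgeR there were 6, against 15.5%. Col1a1, Col1a2 and Sparc, also transcribed in fibroblasts but not on this list, had log2 ratios above 0 (0.12, 0.08 and 0.39). In edgeR 3 of 10 passed, all lower in SG (Thy1, S100a4 and Prrx1, with log2 ratios of -0.72, -0.99 and -0.43), against 1.1% of all tested genes. All 3 calls were lost without SG2, those of S100a4 and Prrx1 also without SG1, WT3 or WT11, and that of Prrx1 without WT9. DESeq2 called 5 lower, adding Vim and Pdgfrb. The abundant Vim and Col5a1 had log2 ratios of -0.17 and -0.16 and did not pass in edgeR (adjusted p = 0.0701 for Vim, 0.00209 in DESeq2). The part of this shift in the fibroblast markers in the levels of the RUNX, bone and cartilage genes was not tested. Of the 10 epithelial markers, 6 had a mean over all 6 lines under 1 CPM (Epcam, Cdh1, Krt5, Krt14, Krt8 and Esrp1), but Cdh3 stood at 102 CPM in SG lines and 94.9 CPM in WT lines, and Krt19 at 48.5 and 65 CPM. Krt5, a keratin of basal epithelium, had 162 reads in SG1, 107 in SG2 and 0 in each of the other 4 lines (2.94 and 1.68 CPM). Its partner Krt14 had a log2 ratio of 2.33 at 0.864 and 0.173 CPM (adjusted p = 0.122). Of 10 endothelial markers, 8 had a mean over all 6 lines under 1 CPM, with Kdr (59.4 and 45.3 CPM) and Erg (2.11 and 3.07 CPM) above it. Of the 7 tested epithelial and 7 tested endothelial markers, 0 passed in edgeR (3 and 1 at an unadjusted p under 0.05), while DESeq2 called Krt14 and Kdr higher. Their summed levels overlapped between genotypes, at 162 to 202 CPM in SG and 161 to 194 CPM in WT for the epithelial list and 55.4 to 74.3 and 43.5 to 58.2 CPM for the endothelial list.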

How the data were processed

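RNA of 6 fibroblast lines was measured by poly(A) sequencing, per the labels' protocols. The values the authors deposited are raw read counts, 1 whole number for each gene and line. Tools named in the submitters' processing notes are Trimmomatic 0.36 for trimming, STAR 2.5.2b for alignment, featureCounts of Subread 1.5.2 for counting, and DESeq2, with GRCm38 as the build. Annotation release, strand setting and treatment of multimapping reads are not given in the sources used here. Symbols came from GENCODE M21, in which 48970 of 49315 identifiers had one, and positions from the files (GRCm38, counted from 1). Tle5 and Tmem2 were matched as Aes and Cemip2.

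The test was that of edgeR 4.0.16 under R 4.3.3 (filterByExpr defaults, TMM scaling, quasi-likelihood test, 2-sided, no covariate), which left 16068 genes, and p-values were adjusted by Benjamini-Hochberg over all of them. Each adjusted p in the text is this edgeR value unless DESeq2 (1.42.0) is named. The SE of a log2 fold change is its absolute value over the root of the F statistic, and CPM and RPKM use TMM-scaled library sizes and the files' exonic lengths. Tests on simulated data used 16068 genes with 200 of them changed, and 8.1% of the calls were false.

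Named genes are all 10 members, list genes past the threshold, the 2 of smallest p where fewer than 2 passed and the 2 of highest RPKM, and the 3 most correlated with Runx1 and with Runx2. Of the genes that the rule takes, 1 is not reported here. Krt5 and the genes named only for a DESeq2 call lie outside it and were picked with their values known. Members and lists were chosen with earlier results of these data known. Alternatives were RLE, upper quartile and total-count scaling, no count filter, DESeq2, a robust prior, each line left out, both lines with Xist (SG1 and WT9) left out, and a term for them. Litter, culture day and sequencing run are not given in the sources used here. Intervals and floors cover counting error only where they rest on single counts. Protein sequences were not used here.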

Additional observations from a re-analysis of the deposited data

How the results depend on the processing

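No paired analysis was possible because the lines of SG and WT share only the number 3 in their labels. Of the 7 tested members, 0 passed under 12 of 14 alternatives, and 1 (Acan) passed without a count filter and 1 (Acan) with DESeq2. Genes past the threshold over the whole table numbered 959 without a count filter, 942 with DESeq2 and 703 without SG1 and WT9, and 3 (without SG2) to 579 (without SG1) when 1 line was left out, against 306. Listed genes past the threshold numbered 20 without a count filter, 19 with DESeq2, 18 without SG1 and WT9 and 10 with a term for the lines with Xist, and 0 (without SG2, WT3 or WT11) to 15 (without SG1) with 1 line left out, against 4. The cause of these shifts was not tested. With 1 line left out, the log2 fold change ranged from -0.16 to 0.0052 for Runx1 (above 0 without SG3), from -0.41 to 0.032 for Runx3 (above 0 without WT11), from -0.86 to 0.62 for Hapln1 (above 0 without SG1 or WT11), from -0.024 to 0.047 for Prmt1, from -0.0088 to 0.12 for Matn2 and from -0.41 to 0.83 for C1qb. Prmt1 was at -0.0060 with total-count scaling and -0.0038 without SG1 and WT9. Runx2, Cbfb, Spp1 and Acan kept their direction under all 14 alternatives. Of 504 further values for 36 named genes, 434 kept direction and side of the threshold, 29 lost the call, 34 gained it and 7 changed sign. Sp7, Alpl and Ibsp had too few reads to pass the count filter.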
